A study of Mus musculus with 5 samples.

Results

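The genes described are 10 immediate early genes, chosen by name: Fos, Fosb, Junb, Egr1, Egr3, Arc, Npas4, Nr4a1, Nr4a3 and Homer1. They are 10 of 32285 genes counted in single-nucleus RNA of mouse hippocampus, and all 10 were detected. Their levels were read in 5 kinds of neuron, named from marker genes: 7884 granule-like, 3179 CA1-like, 1459 CA3-like, 2806 subicular-like and 2450 inhibitory-like nuclei. The suffix is left out below. There were 5 libraries, 1 per genotype: wild type, 5xFAD (a transgenic mouse model of amyloid deposition), and 3 libraries of 5xFAD mice with the labels astrocyte, neuron and global MAGL-KO. MAGL, encoded by Mgll, is the lipase that breaks down the endocannabinoid 2-AG. Astrocyte and neuron name the cell type in which the labels say that MAGL was deleted, and global names deletion in the whole animal. The labels give neither age, sex, the driver of the deletion, nor the number of animals per library. Of nuclei with UMIs of either Xist or Y-linked genes but not both, 57.9%, 41.2%, 58.2%, 82% and 57.9% held Xist in the order of libraries given here, so each library mixed both sexes, in unequal shares. Lists of 5 values follow the order in which the libraries are named here.

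Immediate early genes are transcribed within minutes of synaptic activity, without new protein synthesis, through calcium and kinase signals that reach transcription factors such as CREB and SRF already bound to their promoters. Most encode transcription factors, and a few encode proteins that act at the synapse. Their RNA is short-lived, and so they serve as marks of recent activity. In the hippocampus they mark the sparse sets of neurons engaged by an experience, and dentate granule cells are known for the small share that is engaged at a time.

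Gene positions are given on GRCm38 from GENCODE vM21. The AP-1 subunits are Fos (chr12:85473890-85477273), Fosb (chr7:19302696-19310051) and Junb (chr8:84974484-84978718). The zinc-finger factors are Egr1 and Egr3 (chr14:70077203-70082614). Npas4 (chr19:4984355-4990316) encodes a neuronal bHLH-PAS factor. Nr4a1 (chr15:101254269-101274795) and Nr4a3 (chr4:48045153-48086447) encode orphan nuclear receptors. The synaptic effectors are Arc (chr15:74669083-74672570), which promotes removal of AMPA receptors, and Homer1 (chr13:93299635-93405129), a postsynaptic scaffold. From Fos, with 3384 bases, to Homer1, with 105495 bases, gene length differs widely, so levels are compared within a gene and never between genes. UMIs were counted per gene, so the short Homer1 isoform that activity induces cannot be told apart from the long ones.

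The 250 bases before a transcript start are shown for 4 members for which the RefSeq table (GRCm38.p6) gives a window outside annotated exons, since CREB acts through sites near the start. For Nr4a1 and Homer1 the start in that table lies inside the gene as placed above, downstream of its first base. The table holds 7 of the 10 members. Capitals mark each match to TGACG or its reverse complement CGTCA, the core of the cyclic AMP response element (CRE), searched on both strands.
Fos, chr12:85473640-85473889, plus strand: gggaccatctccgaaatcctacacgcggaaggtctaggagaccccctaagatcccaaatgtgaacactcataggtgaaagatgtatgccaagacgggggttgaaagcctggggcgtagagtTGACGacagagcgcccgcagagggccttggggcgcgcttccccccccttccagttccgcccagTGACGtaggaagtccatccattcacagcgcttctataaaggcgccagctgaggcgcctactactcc
Junb, chr8:84978749-84978998, minus strand: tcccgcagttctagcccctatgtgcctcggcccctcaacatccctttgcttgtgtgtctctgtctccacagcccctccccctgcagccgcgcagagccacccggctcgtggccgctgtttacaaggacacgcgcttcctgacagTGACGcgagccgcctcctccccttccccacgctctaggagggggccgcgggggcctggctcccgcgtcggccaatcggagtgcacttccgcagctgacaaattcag
Nr4a1, chr15:101266596-101266845, plus strand: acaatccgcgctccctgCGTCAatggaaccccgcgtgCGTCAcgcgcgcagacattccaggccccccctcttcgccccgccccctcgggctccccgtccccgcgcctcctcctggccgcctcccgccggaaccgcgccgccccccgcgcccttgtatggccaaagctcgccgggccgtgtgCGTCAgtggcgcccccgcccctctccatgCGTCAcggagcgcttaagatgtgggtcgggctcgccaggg
Homer1, chr13:93303507-93303756, plus strand: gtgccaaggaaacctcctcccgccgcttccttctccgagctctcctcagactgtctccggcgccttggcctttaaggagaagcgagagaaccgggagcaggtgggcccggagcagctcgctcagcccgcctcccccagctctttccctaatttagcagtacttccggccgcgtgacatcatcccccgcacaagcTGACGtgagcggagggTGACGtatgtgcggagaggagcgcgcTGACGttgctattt

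The core motif was present in these windows at 2 places for Fos, 1 for Junb, 4 for Nr4a1 and 3 for Homer1. The 7 members in the table have 8 windows, of which 7 held at least 1 core motif (the second Homer1 window held 0), against 17.8% of 32841 promoter windows of the same length. The full palindrome TGACGTCA, which holds 2 overlapping core motifs, 1 on each strand, was in 0 of the 8 and in 1.55% of all windows. The CArG box, the site of SRF, was in 0 of the 8 and in 1.47% of all windows. A match is a description of letters in this window only.

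The libraries held 5245, 5185, 6164, 4050 and 7498 barcodes, and 3917 to 7031 nuclei per library were used. Sums of a subtype in a library held 7418037 to 24262073 UMIs, and levels are counts of UMIs scaled to 1e6 per sum (CPM). Median depth in 5xFAD was 13786.5 UMIs per granule nucleus and 31534 per CA3 nucleus. All markers fixed for each subtype were detected in it. Detection does not tell the subtypes apart, since granule nuclei also held every CA1, CA3, subicular and inhibitory marker at 10 UMIs or more. Summed CA1 markers stood at 4660 to 5670 CPM in inhibitory nuclei, against 6910 to 10100 in CA1 nuclei. Summed inhibitory markers stood at 6040 to 7370 CPM in inhibitory nuclei. The inhibitory nuclei were mixed: Slc17a7, a marker of excitatory neurons, stood at 81.0 to 138 CPM in them, against 163 to 228 in granule nuclei, and 29.5% to 39.3% of them held both Xist and Y-linked UMIs, against 11.9% to 18.5% of subicular, 7.17% to 11.4% of CA3, 4.64% to 8.89% of CA1 and 3.23% to 5.95% of granule nuclei. They form 3 clusters. In c20, led by Vip, and c24, whose leading genes include Sst, Slc17a7 stood at 71.7 to 153 CPM, and these hold 84.7% of the class. Gad2, an inhibitory marker, stood at 104 to 132 CPM in c24, where Slc17a7 exceeded it in 3 of 5 libraries, and at 0.91 to 1.62 CPM in granule nuclei of 5xFAD and wild type. In c17, with Btbd11 and Erbb4 among its leading genes and 15.3% of the class, Slc17a7 stood at 5.9 to 11.7 CPM. Values in c17 alone are given below for the contrasts with granule nuclei and for some ratios between libraries, while the inhibitory levels, shares and promoter values are of the whole class. The clusters differ in kind of neuron as well as in Slc17a7. Of 27653 distinct barcodes, 440 occurred in more than 1 library. Mgll itself stood at 86.3, 83.2, 115, 117 and 107 CPM in granule nuclei and at 38.5, 42.3, 55.3, 58.7 and 48.8 in CA1 nuclei, where all 3 libraries labelled MAGL-KO were above both others. In subicular nuclei the library labelled global MAGL-KO (61.5 CPM) was below 5xFAD (68) and wild type (70.6), and in inhibitory nuclei those labelled neuron (83.9) and global MAGL-KO (75.3) were below 5xFAD (85.3). UMIs outside a deleted part would check nothing, and these libraries are called by their labels throughout.

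Granule nuclei held the least RNA of 9 of the 10 genes, and subicular and CA1 nuclei held the most of 9. The plot of levels by subtype and library shows each value. The AP-1 genes had low counts apart from Junb. Fos stood at 5.78, 4.12, 2.41, 4.13 and 2.48 CPM in subicular nuclei and at 4.47, 3.02, 1.90, 2.00 and 2.71 in CA1 nuclei. In granule nuclei Fos stood at 0.613, 0.354, 0.100, 0.171 and 0.0824 CPM, from 14, 7, 2, 3 and 2 UMIs. The granule values lay below all the CA1 and subicular values, while CA1 and subicular overlapped. Fos in inhibitory nuclei averaged 2.36 ± 1.40 CPM (SD, n = 5), and in CA3 nuclei 0.923 ± 0.435. Fosb, a close relative of Fos, averaged 1.41 ± 0.922 CPM in subicular, 1.13 ± 0.865 in inhibitory, 0.868 ± 0.395 in CA1, 0.605 ± 0.630 in CA3 and 0.351 ± 0.164 in granule nuclei (SD, n = 5), and all neighbours in this order overlapped. Fosb had 0 UMIs in CA3 nuclei of the library labelled astrocyte MAGL-KO.

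Junb, the dimer partner of the Fos proteins, stood at 24.7, 19.4, 18.2, 22.9 and 16.9 CPM in CA1 nuclei, and in subicular nuclei at 27.1, 18.2, 18, 23.8 and 12.4. Its granule values were 7.96, 6.67, 11.3, 11.5 and 5.44 CPM. Both sets lay wholly above the granule set, whereas inhibitory (11.8 ± 2.79 CPM) and CA3 nuclei (10.2 ± 2.23; SD, n = 5) overlapped with it.

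**Figure D1:**
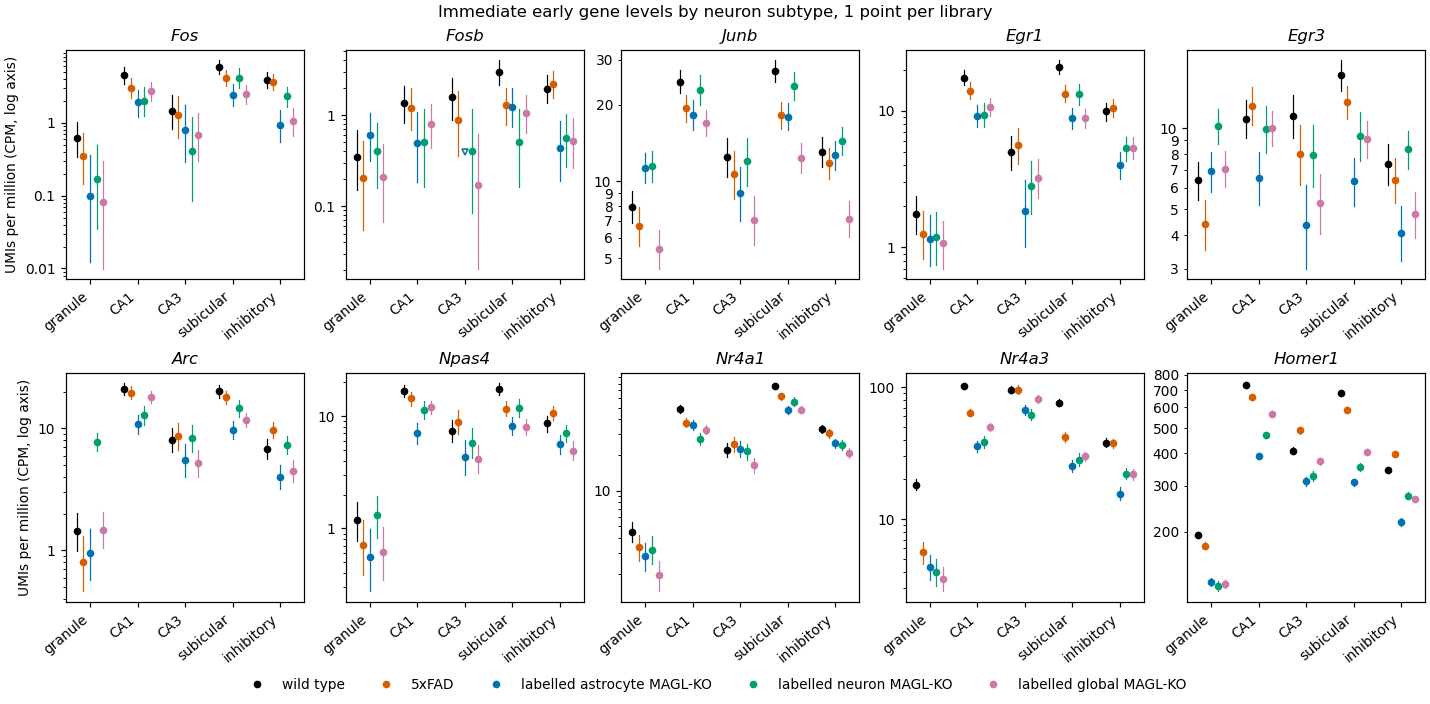
Level in CPM (log axis) of each of the 10 genes in 5 neuron subtypes, 1 point per library with its exact Poisson 95% interval, which covers counting error only; the open triangle marks 0 UMIs, drawn at the level of 3 UMIs. For Nr4a1 the granule points, 1.94 to 4.51 CPM, lie below every point of the other subtypes, while for Egr3 the 5 subtypes overlap.

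Of the zinc-finger factors, Egr1 was sharply graded and Egr3 was not. Egr1, which is widely used as a marker of recent activity, stood at 21.0, 13.4, 8.88, 13.3 and 8.88 CPM in subicular nuclei and at 1.75, 1.26, 1.15, 1.19 and 1.07 in granule nuclei. Its granule values lay below those of every other subtype, and CA3 nuclei were next at 3.70 ± 1.55 CPM (SD, n = 5). Egr3, a relative of Egr1 that binds the same kind of site, stood at 6.39, 4.4, 6.91, 10.2 and 7.05 CPM in granule nuclei and at 7.34, 6.42, 4.07, 8.33 and 4.78 in inhibitory nuclei. It had its lowest mean in inhibitory nuclei, 6.19 ± 1.76 CPM against 6.98 ± 2.08 in granule nuclei (SD, n = 5), and these overlapped.

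Npas4, which is induced by calcium entry in neurons, stood at 16.7, 14.3, 7.03, 11.3 and 11.9 CPM in CA1 nuclei and at 1.18, 0.708, 0.551, 1.31 and 0.618 in granule nuclei. The groups did not overlap, and neither did granule with any other subtype. Subicular nuclei averaged 11.4 ± 3.78 CPM, inhibitory 7.38 ± 2.33 and CA3 6.13 ± 2.02 (SD, n = 5).

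The orphan receptors were highest in different subtypes. Nr4a1 stood at 76.0, 62.3, 48.2, 56.3 and 48.3 CPM in subicular nuclei, at 48.7, 37.4, 36.1, 27.4 and 32.8 in CA1 nuclei and at 4.51, 3.34, 2.81, 3.18 and 1.94 in granule nuclei. Subicular exceeded CA1 in each of the 5 libraries, although the ranges overlapped slightly across libraries. Nr4a3 had its highest mean in CA3 nuclei, with 95.5, 95.5, 67.5, 61.7 and 81.3 CPM, ahead of CA1 nuclei with 101.9, 64.1, 35.8, 38.3 and 50.0. CA3 was above CA1 in 4 of 5 libraries, all but wild type, and the ranges overlapped. In granule nuclei Nr4a3 stood at 18.2 CPM in wild type and at 3.55 to 5.61 CPM in the other 4 libraries.

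The synaptic effectors were highest in CA1 nuclei. Arc stood at 21.0, 19.6, 10.8, 12.8 and 18 CPM there, at 20.1, 18, 9.78, 14.6 and 11.8 in subicular nuclei, and at 1.44, 0.809, 0.952, 7.73 and 1.48 in granule nuclei. The granule value of 7.73 CPM in the library labelled neuron MAGL-KO stands apart from the other 4. CA3 (7.17 ± 1.66 CPM) and inhibitory nuclei (6.49 ± 2.31; SD, n = 5) came between. Homer1 stood at 729.6, 656, 391, 471 and 567 CPM in CA1 nuclei, at 679.8, 589, 309, 355 and 405 in subicular nuclei and at 194, 177, 128, 123 and 126 in granule nuclei. Granule did not overlap with any other subtype, and CA1 exceeded subicular in all 5 libraries.

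Against granule nuclei, edgeR's quasi-likelihood test with the library as a block and Benjamini-Hochberg adjustment over 16910 genes called all 10 members higher in CA1 and subicular nuclei. In inhibitory nuclei 9 were higher and in CA3 nuclei 8. With cluster c17 alone as the inhibitory class, 4 were higher (Fos, Egr1, Npas4 and Nr4a1) and 1 was lower, Egr3, and a fit with no filter gave the same 4 and 1. These calls rest on few UMIs: c17 held 2, 4, 0, 2 and 3 of Fos and 1, 0, 0, 2 and 0 of Egr3. Over all genes, 30.4% were called higher in CA1, 33.2% in subicular, 35.7% in inhibitory and 29.1% in CA3 nuclei. With all clusters no member was lower in any contrast, with edgeR at an unadjusted p under 0.05 or with DESeq2 (0 in each). Over all genes edgeR called 30.9% lower in CA1, 33.4% in subicular, 35.1% in inhibitory and 32.6% in CA3 nuclei. All 10 members passed the filter of 10 UMIs in 5 sums. Fos and Fosb passed through the other subtypes, each having 10 UMIs in granule nuclei of 1 library only, and the other 8 had them in all 5. A fit with no filter gave the same numbers of members higher. With the library as a block, the p-values measure how far subtype differences vary between 5 libraries of different genotypes. They leave out a shift that a library has in all subtypes.

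Nr4a1 rose most in subicular nuclei, by 4.21 (log2; edgeR adjusted p = 4.87e-21), and the subicular mean was 18.5 times the granule mean. Npas4 rose by 3.88 in CA1 nuclei (edgeR adjusted p = 6.72e-16), a ratio of means of 14, and by 3.70 in subicular nuclei. Nr4a3 rose most in CA3 nuclei, by 3.68 (edgeR adjusted p = 2.3e-14), with a ratio of means of 11.3. Each of these was higher in 5 of 5 libraries.

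Fos rose by 3.80 in subicular (edgeR adjusted p = 4.68e-12), 3.47 in CA1 (8.53e-11), 3.01 in inhibitory (9.5e-10) and 1.85 in CA3 nuclei (0.000265). Since Fos entered the test through these subtypes, the fit with no filter is given too, with 3.79, 3.46, 3.04 and 1.85 (edgeR adjusted p from 4.53e-16 to 8.7e-05). Egr1 rose by 3.32, 3.30, 2.35 and 1.59 in the same subtypes (edgeR adjusted p from 6.98e-16 to 2.82e-07). Arc was 2.91 higher in CA1 nuclei (edgeR adjusted p = 1.09e-08) and 1.40 higher in inhibitory nuclei (0.000829), in 4 of 5 libraries in the latter. The library labelled neuron MAGL-KO, with its high granule level, moved these values: without it Arc was 3.92 higher in CA1, 2.60 in CA3 (1.69 with it), 3.63 in subicular (2.68 with it) and 2.30 in inhibitory nuclei. In c17 alone Arc was below granule nuclei (-1.82, edgeR adjusted p = 0.255), from 1 UMI in each library. Homer1 rose by 1.95 in CA1 (edgeR adjusted p = 1.92e-16) and 0.93 in inhibitory nuclei (1.91e-10). In c17 alone Homer1 (0.06, edgeR adjusted p = 0.615) and Nr4a3 (0.22, adjusted p = 0.716) did not pass, and neither did Junb (-0.29, 0.369) or Fosb (0.86, 0.452). The 4 members still higher in c17 had smaller values there. Egr1 stood at 1.06 (2.35 with all clusters), Npas4 at 1.84 (3.01), Nr4a1 at 2.03 (3.02) and Fos at 2.4 (3.01). Fos, Egr1, Npas4, Nr4a1, Nr4a3, Arc and Homer1 kept their calls in the alternative fits other than that with c17 alone.

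Junb, Egr3 and Fosb were the weaker members. Junb rose by 1.33 in CA1 nuclei and by 0.34 in CA3 nuclei (edgeR adjusted p = 0.0338), and the CA3 call was lost without wild type (adjusted p = 0.152), without 5xFAD (0.142), without the library labelled global MAGL-KO (0.073) and with no doublet removal (0.0624). Egr3 rose by 0.55 in CA1 (edgeR adjusted p = 0.0104) and 0.60 in subicular nuclei (0.00471), with higher values in 3 of 5 libraries in both. The CA1 call ended without 5xFAD (adjusted p = 0.0946) and the subicular call without wild type (0.0737). Its log2 fold changes of 0.13 in CA3 (edgeR adjusted p = 0.616) and -0.27 in inhibitory nuclei (0.203) did not pass. Without the granule cluster c12, described below, Egr3 (0.66, edgeR adjusted p = 0.00186) and Fosb (2.00, adjusted p = 0.00287) passed in CA3 nuclei, and Arc in CA1 nuclei moved to 5.02. Npas4 in CA1 nuclei also moved to 5.02 (3.88 with c12), Fosb in CA1 nuclei to 2.54 and Nr4a1 in subicular nuclei to 4.92 (4.21 with c12). In wild type c12 was the granule cluster with the highest level of every member, such as Nr4a3 at 103.8 CPM against 4.64 to 10.6. Leaving it out of granule nuclei alone raises the contrasts by construction, so these calls and moves are no support for them. Fosb rose by 1.99 in subicular nuclei (edgeR adjusted p = 0.000129) and by 1.36 in CA1 nuclei (0.011), the latter not without wild type (0.0662) or without the library labelled global MAGL-KO (0.0546). Since Fosb too entered the test through the other subtypes, the edgeR fit with no filter is given. It had 1.99 in subicular (adjusted p = 1.62e-05), 1.36 in CA1 (0.00626) and 0.835 in CA3 nuclei (0.2). In CA3 nuclei Fosb stood 0.83 higher (edgeR adjusted p = 0.189), and it passed without the library labelled astrocyte MAGL-KO (log2 1.44, adjusted p = 0.0181). Without the library as a block, Fosb and Egr3 in CA1, and Junb in CA3 and inhibitory nuclei, missed the threshold (adjusted p = 0.0698, 0.0731, 0.201 and 0.093).

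**Figure D2:**
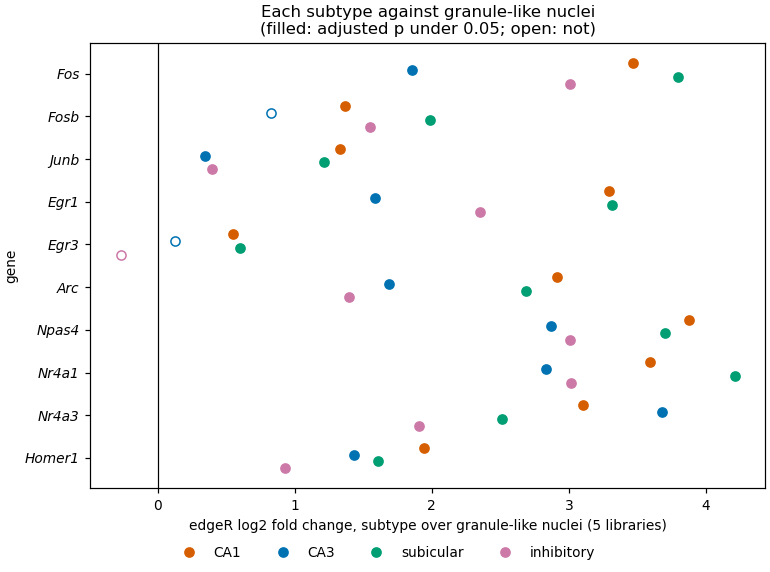
The edgeR log2 fold change of each gene in CA1, CA3, subicular and inhibitory nuclei over granule nuclei, from 5 libraries, with filled points for adjusted p under 0.05. Of 40 points 37 are filled, and the open ones are Fosb and Egr3 in CA3 and Egr3 in inhibitory nuclei.

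The members' median log2 fold change was 3.01 in CA1, 2.60 in subicular, 1.73 in inhibitory and 1.64 in CA3 nuclei, and the median over all genes tested was -0.01, -0.02, -0.003 and -0.04. With c17 alone as the inhibitory class the members' median was 0.54 there and 1.65 in CA3 nuclei. Without the granule cluster c12 the medians were 3.77 in CA1, 3.51 in subicular, 2.81 in inhibitory and 2.22 in CA3 nuclei. Such a rise follows from leaving out granule nuclei that were high in the members. A list of 30 other rapid response genes moved less evenly. Of 27 tested, 17 rose and 4 fell in CA1 nuclei, and 13 rose and 7 fell in CA3 nuclei. Of 24 delayed response genes, which include the neuropeptide gene Penk and the synaptic pentraxin gene Nptx2, 9 rose and 11 fell in CA1 nuclei. Of 26 upstream regulators, among them kinases, CREB coactivators and SRF with its partners, 8 rose and 14 fell in CA1 nuclei. Over all genes 30.4% rose and 30.9% fell in CA1 nuclei, and 29.1% and 32.6% in CA3 nuclei. The delayed genes and regulators that rose were near the share over all genes. Those that fell in CA1 nuclei, 11 of 24 and 14 of 26, exceeded the 30.9% over all genes. In subicular and inhibitory nuclei 15 rapid genes rose in each, and 4 and 5 fell. Delayed genes there had 9 up and 11 down in each, and regulators 6 and 7 up, 14 and 16 down.

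Between wild type and 5xFAD, subicular nuclei held less RNA of all 10 members in 5xFAD, and granule nuclei held much less Nr4a3. The members' medians were near 0 in CA3 and inhibitory nuclei. Each genotype was 1 library, so there was no test, and intervals cover counting error only. Of 50 pairs of a member and a subtype, 43 had 50 UMIs over both libraries, and 9 were lower by a log2 ratio of 0.5 or more, or 20.9%, against 4.78% of such pairs over all genes. One was higher, Arc in inhibitory nuclei (0.51 [0.16, 0.86]), against 2.24% over all genes. It was under the fold with a pseudocount of 1 CPM (0.45), with all variable genes in the clustering (0.30), with no doublet removal (0.37) and as a mean over nuclei (0.06), and c17 held 1 Arc UMI in each library. The count of 9 was 4 with a pseudocount of 5 CPM and 14 with a minimum of 10 UMIs.

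Nr4a3 in granule nuclei stood at 18.2 CPM in wild type and 5.61 in 5xFAD, a log2 ratio of -1.70 [-2.01, -1.39]. In subicular nuclei it stood at 76.2 and 41.9 CPM (-0.86 [-1.01, -0.72]) and in CA1 nuclei at 101.9 and 64.1 (-0.67 [-0.79, -0.55]). The wild-type level was the higher in these 3 subtypes, while in CA3 nuclei both libraries stood at 95.5 CPM. In subicular nuclei Fosb (-1.21 [-2.07, -0.40]), Egr1 (-0.65 [-0.92, -0.39]), Npas4 (-0.58 [-0.87, -0.29]) and Junb (-0.57 [-0.80, -0.35]) were also past the fold. Homer1 was 0.26 [0.19, 0.32] higher in 5xFAD in CA3 and 0.21 [0.16, 0.26] higher in inhibitory nuclei, and 0.21 [0.17, 0.25] lower in subicular nuclei. The members' median was -0.53 in subicular, -0.45 in granule, -0.31 in CA1, 0.12 in CA3 and 0.04 in inhibitory nuclei, beside -0.01 over all pairs. These medians moved with the sex of the nuclei. In subicular nuclei the median was -0.15 in Xist nuclei, with 2 of 8 counted members lower by 0.5 or more, and -0.65 in Y-linked nuclei, with 7 of 9. In inhibitory nuclei it was -0.91 in Xist nuclei, over 3 members, and 0.22 in Y-linked nuclei, over 6. The subicular clusters also differed in share and direction: in c13, with 27.3% of the class in wild type and 36.6% in 5xFAD, Homer1 stood at 540.5 and 562.8 CPM, and in c29, with 15.7% and 11.8%, Arc stood at 19.1 and 25.2 CPM.

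The libraries labelled MAGL-KO are each compared with the same 5xFAD library below, so the 3 comparisons are not independent. In the library labelled astrocyte MAGL-KO most members were lower in every subtype but granule. Of 40 counted pairs 27 were lower by 0.5 or more, or 67.5%, against 1.61% over all genes, and 2 were higher, against 21.6%. The members' median was -0.66 and that of all pairs 0.20. Genes under 10 kb, as 7 of the members are, had medians of 0.43 to 0.49 in the 5 subtypes, and genes of 100 kb or more, as Homer1 is, had medians of -0.03 to 0.02. The part of that shift in the members' ratios was not tested. Median-of-ratios size factors moved the ratios down by about that median (Homer1 in CA1 nuclei to -0.96, Egr3 in granule nuclei to 0.46) and gave 30 lower pairs. Nuclei with Xist and no Y-linked UMI gave 9 lower of 28 counted. These were 6 of 8 in CA1 and 3 of 8 in subicular nuclei. In Xist nuclei 0 of 4 were lower in CA3, 0 of 3 in inhibitory and 0 of 5 in granule nuclei. Y-linked nuclei gave 5 of 8 in CA1, 6 of 7 in CA3, 6 of 8 in subicular and 3 of 5 in inhibitory nuclei, and 0 of 5 in granule. Thinning each nucleus to 5000 UMIs gave 11 of 25.

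Homer1 was lower there in CA1 nuclei, at 391 against 656 CPM (-0.75 [-0.80, -0.70]), and in subicular nuclei, at 309 against 589 (-0.93 [-0.98, -0.88]). Npas4 in CA1 nuclei stood at 7.03 against 14.3 CPM (-1.03 [-1.42, -0.65]), and Egr1 in CA3 nuclei at 1.85 against 5.6 (-1.60 [-2.58, -0.70]). All 4 levels were below those in 5xFAD, with intervals that did not reach 0. In inhibitory nuclei Fos (-1.98 [-2.85, -1.19]), Egr1 (-1.40 [-1.81, -0.999]), Arc (-1.27 [-1.69, -0.87]) and Nr4a3 (-1.26 [-1.47, -1.06]) were lower. Nr4a3 in inhibitory nuclei stood 0.33 higher when only nuclei with Xist and no Y-linked UMI were used. In c17 alone Homer1 was the 1 member with 50 UMIs, and its ratio there was -0.36. Intervals included 0 for Junb in CA1 (-0.09 [-0.36, 0.17]), subicular (-0.02 [-0.27, 0.23]) and inhibitory nuclei (0.11 [-0.17, 0.39]), and for Nr4a1 in CA1 nuclei (-0.05 [-0.24, 0.14]). In granule nuclei Junb (0.76 [0.45, 1.08]) and Egr3 (0.65 [0.26, 1.06]) were higher.

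The library labelled neuron MAGL-KO had fewer members lower. There 16 of 41 counted pairs were lower, or 39.0%, against 2.06% over all genes, and 3 were higher, against 20.7%. The members' median was -0.40 and that of all pairs 0.17, with medians of 0.38 to 0.47 for genes under 10 kb. Homer1 was past the fold in 4 subtypes and Nr4a3 in 4. Homer1 in subicular nuclei stood at 355 against 589 CPM (-0.73 [-0.79, -0.68]), and Nr4a3 in inhibitory nuclei at 22.1 against 37.5 (-0.76 [-0.95, -0.58]). The Nr4a3 direction turned in inhibitory nuclei with Xist and no Y-linked UMI, at 13.3 against 6.81 CPM (0.96), and c17 held 2 against 7 UMIs. The count of 16 was 8 with a pseudocount of 5 CPM, 10 with each nucleus given to its highest marker score, 10 after thinning and 4 in Xist nuclei.

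The 3 higher pairs were all in granule nuclei. In Xist nuclei 9 pairs were higher, 3 in granule, 4 in inhibitory, 1 in CA3 and 1 in subicular nuclei. Arc stood at 7.73 against 0.809 CPM, from 136 and 16 UMIs (3.26 [2.51, 4.10]), Egr3 at 10.2 against 4.4 (1.21 [0.83, 1.60]) and Junb at 11.5 against 6.67 (0.78 [0.46, 1.11]). The Arc rise lay in Xist nuclei, at 9.72 against 0.7 CPM, from 129 and 5 UMIs. In Y-linked nuclei Arc stood at 0.64 against 0.877 CPM, from 2 and 10 UMIs. Ratios in Xist and Y-linked nuclei were 1.05 and 0.956 for Egr3 and 1.02 and 0.13 for Junb. Arc in CA1 nuclei of the same library was lower, at 12.8 against 19.6 CPM (-0.61 [-0.93, -0.31]).

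In the library labelled as global MAGL-KO members were lower mainly in inhibitory, CA3 and subicular nuclei. Of 42 counted pairs 22 were lower, or 52.4%, against 2.54% over all genes, and 2 were higher, against 6.53%. The members' median was -0.53 and that of all pairs 0.04, and genes under 10 kb had medians of 0.02 to 0.05. By subtype 8 members were past the fold in inhibitory nuclei, 6 each in CA3 and subicular, 2 in granule and 0 in CA1 nuclei, where all 9 counted were below 0, by 0.12 to 0.39. The 2 granule members were Nr4a1 and Nr4a3, at -0.27 and -0.15 without cluster c12, described below. CA1 nuclei form clusters c2 and c6, and c2 held 75.6% of them in 5xFAD and 61.2% in this library. In c6 Fos, Fosb, Junb, Egr1, Arc and Npas4 stood above 5xFAD, such as Npas4 at 5.41 against 3.51 CPM, from 44 and 13 UMIs. In c2 Arc and Nr4a1 did so, and the others in each cluster stood below. The part of these shares in the ratios was not tested. In inhibitory nuclei Fos stood at 1.04 against 3.64 CPM (-1.81 [-2.58, -1.09]), Npas4 at 4.92 against 10.7 (-1.12 [-1.48, -0.77]) and Arc at 4.5 against 9.71 (-1.11 [-1.49, -0.74]). Homer1 in inhibitory nuclei was -0.58 [-0.63, -0.53], -0.20 in nuclei without both Xist and Y-linked UMIs and -0.24 in c17. The other members had under 50 UMIs in c17, so that with c17 as the inhibitory class the count of 22 was 14, none of them inhibitory. Nr4a3 in c17 stood at 9.71 CPM against 5.35, from 22 and 7 UMIs. The count of 22 was 13 without doublet removal, 13 with a minimum of 200 UMIs, 9 in Xist nuclei, 8 with a pseudocount of 5 CPM and 4 of 25 after thinning.

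**Figure D3:**
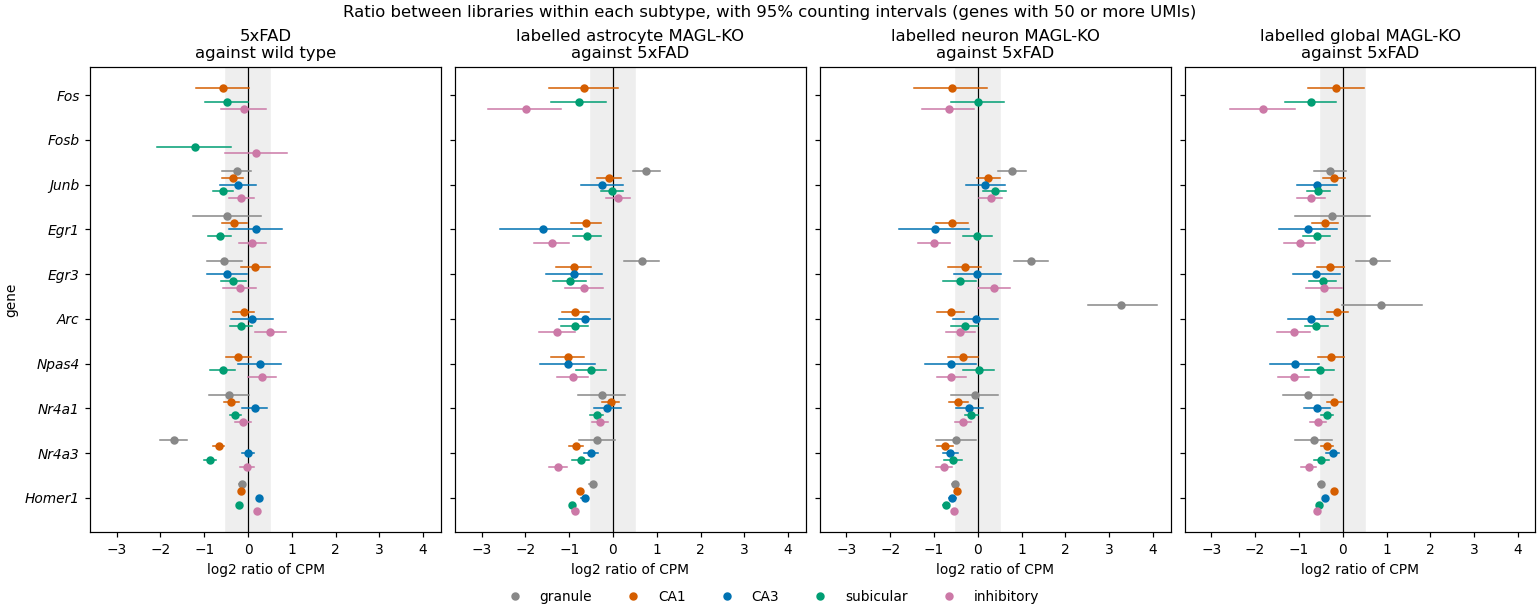
Log2 ratio of CPM with its 95% counting interval for each gene (rows) and subtype (colours), in 4 comparisons of 1 library with another; the grey band spans ratios under 0.5 in size, and pairs under 50 UMIs are left out. Most points of the libraries labelled MAGL-KO lie left of 0 outside granule nuclei, and Arc in granule nuclei of the library labelled neuron MAGL-KO lies at 3.26.

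All 3 libraries labelled MAGL-KO stood below both wild type and 5xFAD for 9 members in CA1 nuclei, all but Junb. In CA3, subicular and inhibitory nuclei 7 members did so, and in granule nuclei 5. Among genes with 100 UMIs the shares were 6.0% in CA1, 4.65% in CA3, 6.11% in subicular, 5.98% in inhibitory and 8.03% in granule nuclei. Restricted to that minimum the members numbered 8 of 9, 5 of 8, 7 of 10, 7 of 10 and 4 of 7 in the same order. The CA1 result was not the same within its clusters. In c2 alone all of those 9 but Arc and Nr4a1 were below both in all 3 libraries. In c6 alone only Nr4a1, Nr4a3 and Homer1 were. Arc in the library labelled global MAGL-KO stood at 26.2 CPM in c2 and 8.36 in c6, against 24.3 and 7.56 in 5xFAD. Egr1, Nr4a3 and Homer1 were below in all 5 subtypes. In granule nuclei this differed by cluster for Nr4a3 and Egr1. Nr4a3 stood at 9.78, 2.29, 4.01, 3.76 and 3.97 CPM in cluster c5, above 5xFAD in all 3. In c11 Nr4a3 stood at 10.6, 5.64, 2.85, 4.59 and 2.65 CPM. Egr1 in c5 stood at 0.97, 0.84, 0.96, 0.79 and 1.03 CPM, from 4 to 9 UMIs. Egr3 in granule nuclei was the 1 member above both in all 3 libraries, where 32.3% of genes were above. Within no single granule cluster were all 3 above wild type. In c5 Egr3 stood at 6.665 CPM in wild type and at 5.135, 6.92 and 6.32 in those labelled astrocyte, neuron and global MAGL-KO. Cluster c12, described below, had the highest Egr3 level, and its share of granule nuclei was larger in these 3 libraries. No member was above in the other subtypes, where 29.7% of genes were in CA1, 24.9% in CA3, 27.6% in subicular and 28.8% in inhibitory nuclei.

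A cluster of granule nuclei (c12) led by Pappa and Penk among named genes took up different shares of the libraries: 9.45%, 8.90%, 30.5%, 31.5% and 38.3% of granule nuclei. Within it Nr4a3 stood at 103.8, 30.9, 6.93, 4.33 and 4.63 CPM, and Homer1 at 454.8, 248, 116, 132 and 118. Both were highest in wild type and next in 5xFAD. Arc in this cluster stood at 5.64, 6.41, 2.54, 21.3 and 3.42 CPM, and 128 of the 136 Arc UMIs of granule nuclei in the library labelled as neuron MAGL-KO lay in it, with 5, 3, 0 and 0 in the other granule clusters. Without the cluster, Egr3 in granule nuclei was 0.36, 0.41 and 0.49 higher than in 5xFAD in the libraries labelled as astrocyte, neuron and global MAGL-KO, and Nr4a3 in 5xFAD was 1.55 lower than in wild type.

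A few granule nuclei carried much of the Homer1 RNA in wild type and of the Nr4a3 RNA in all libraries. The top 1% of granule nuclei held 21.7% of Homer1 UMIs in wild type and 11%, 8.70%, 7% and 8.89% in the others, and the highest single nucleus held 230, 139, 76, 16 and 41 UMIs. For Nr4a3, with a median of 0 UMIs per nucleus, the top 1% held 54.6%, 57.7%, 51.7%, 41.4% and 57% of UMIs. In subicular nuclei 17.7%, 12.3%, 3.06%, 6.49% and 5.56% held 30 or more Homer1 UMIs, and in CA1 nuclei 11.8%, 8.84%, 1.86%, 5.56% and 6.18%. These shares were highest in wild type and lowest in the library labelled astrocyte MAGL-KO, as counted and at unequal depth. Arc UMIs were in 1.47%, 0.882%, 0.763%, 8.02% and 1.71% of granule nuclei, beside 0%, 3.36%, 0.893%, 6.10% and 2.63% of oligodendrocyte nuclei at median depths of 2233 to 3305 UMIs; the 0 of 328 allows up to 0.915%. After thinning to 5000 UMIs the granule share in the library labelled neuron MAGL-KO was 3.29%, beside 3.57% of 56 oligodendrocyte nuclei, which are 2 nuclei and too few to set a background.

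Nuclei that held several members were a small share at equal depth. After thinning to 5000 UMIs, 13.4%, 5.99%, 3.11%, 4.64% and 3.41% of subicular nuclei held 3 or more of the 9 members other than Homer1, and 8.91%, 7.27%, 4.34%, 3.05% and 5.14% of CA1 nuclei did. Wild type was highest in both. In granule nuclei the shares were 0.772%, 0.305%, 0.123%, 0.183% and 0%, and in oligodendrocyte nuclei 0% in each library. Most oligodendrocyte nuclei, at median depths of 2233 to 3305 UMIs, fell short of 5000 UMIs and were left out. Those left are too few for the 0% to set a background. As counted, 46.8% of wild-type subicular and 1.90% of wild-type granule nuclei held 3 or more.

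**Figure D4:**
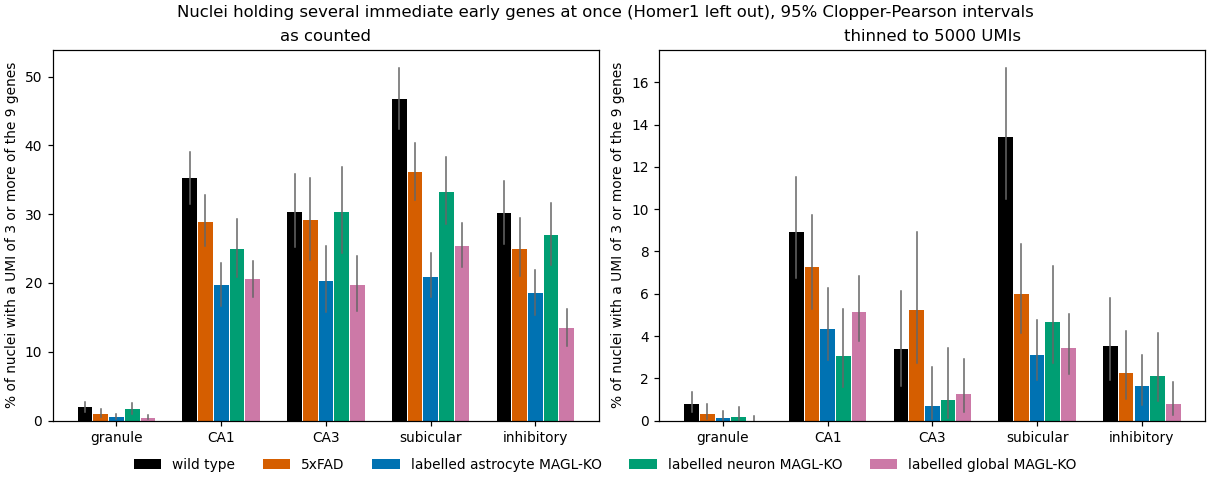
Percent of nuclei with a UMI of 3 or more of 9 immediate early genes, by subtype and library, as counted and after thinning each nucleus to 5000 UMIs, with Clopper-Pearson 95% intervals that cover counting error only. Wild-type subicular nuclei reach 13.4% after thinning, and granule nuclei stay at or under 0.772%.

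Among 222 CA1 nuclei with an Arc UMI after thinning, 21.2% held Npas4, against 4.02% of 2839 nuclei without Arc, and this was so in 5 of 5 libraries. Fos was in 7.21% against 0.634%, Egr1 in 19.4% against 4.65% and Nr4a1 in 28.4% against 13%. In subicular nuclei the shares for Egr1 were 19.3% against 5.54%. Among pairs of the 9 members other than Homer1, 1 of which was in at least 50 nuclei, the presence of 1 went with a higher share of the other in 35 of 35 pairs in CA1, 36 of 36 in subicular, 27 of 30 in inhibitory, 26 of 30 in granule and 17 of 21 in CA3 nuclei, with libraries pooled. Pooling mixes libraries of different levels, and fewer pairs held in each library with at least 20 positive nuclei: 20 of 35 in CA1, 18 of 35 in subicular, 9 of 21 in inhibitory, 2 of 26 in granule and 6 of 15 in CA3 nuclei. CA1 nuclei also pool clusters c2 and c6, which in wild type held 27.8 and 10.6 CPM of Arc and 24.1 and 5.55 of Npas4. Whether members go together within a cluster was not tested. Pairs share members and nuclei of 1 library share their source, so these are descriptions.

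Promoter accessibility differed less than RNA. It was measured as transposase cut sites in listed peaks within 500 bases of the stretch of start sites that the deposited gene list gives, scaled to 1e6 cut sites in peaks (CPM). That stretch spans 12578 bases for Nr4a1, with 3 or 4 peaks, 4278 for Homer1 and 1385 for Egr1. Egr1 has 2 peaks, and Homer1 and the other members have 1 each. At Nr4a1 it averaged 77.6 ± 12.3 in subicular, 67.8 ± 8.56 in inhibitory, 59.7 ± 8.73 in CA1, 48.0 ± 6.16 in CA3 and 40.3 ± 2.56 in granule nuclei (SD, n = 5). Subicular exceeded granule in 5 of 5 libraries, by 0.94 ± 0.25 on the log2 scale, where the RNA differed by 4.21. The peak near the last base of the stretch, where the sequence shown ends, gave 0.69 ± 0.28, and that near the first base 1.32 ± 0.26 (SD, n = 5). Nr4a3 was 0.37 to 0.44 above granule in the 4 other subtypes in 5 of 5 libraries each. Fos was 0.44 ± 0.16 above in subicular and 0.56 ± 0.24 in inhibitory nuclei.

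Other promoters did not follow the order of the RNA. Egr3 stood at 32.3 ± 1.15 CPM of cut sites in granule, 27.0 ± 3.35 in CA1, 24.2 ± 1.86 in subicular and 22.3 ± 2.77 in inhibitory nuclei (SD, n = 5). It was below granule in all 4 subtypes in 5 of 5 libraries. Its RNA was called higher than in granule nuclei in CA1 (0.55) and subicular nuclei (0.60). In inhibitory nuclei its RNA also stood below granule (-0.27), without passing the threshold. Arc was 50.1 ± 2.80 in granule and 49.3 ± 2.16 in CA1 nuclei, with overlap. The members' median log2 ratio over granule was -0.09 in CA1, -0.20 in CA3, 0.09 in subicular and 0.08 in inhibitory nuclei, beside -0.26, -0.26, -0.04 and 0.09 over all genes. Peaks were listed separately for each library, so a ratio between libraries compares regions that differ in extent: by up to 1.35 times for Nr4a1, which has 3621 bases in 5xFAD and 2676 in the library labelled astrocyte MAGL-KO, and by at most 1.03 times for the others. In the 4 comparisons 0 of 50 promoters of a member in a subtype were lower by 0.5 or more, also per covered base. Over all genes 4.12% were in 5xFAD against wild type, and 3.56%, 5.10% and 4.49% in those labelled as astrocyte, neuron and global MAGL-KO against 5xFAD. One was higher, Arc in CA3 nuclei of the library labelled neuron MAGL-KO (51.7 against 36.5 CPM, 0.50), where 4.55% of all were higher. The shares higher in the other comparisons were 3.89% in 5xFAD, and 5.30% and 4.37% in those labelled astrocyte and global MAGL-KO. Per covered base Nr4a1 in granule nuclei was also past the fold in the library labelled astrocyte MAGL-KO (0.54, and 0.10 as summed).

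Other activity genes in granule nuclei were compared in the same way. Of 22 delayed genes counted in the library labelled neuron MAGL-KO, 15 were higher than in 5xFAD by 0.5 or more and 0 lower, with Nptx2 at 20.3 against 2.63 CPM (2.95) and Penk at 42.8 against 6.37 (2.75). Of 18 rapid genes there, 10 were higher, led by Gadd45b (3.11) and Klf10 (2.75), and 1, Fbxo33 (-0.58), was lower. For the library labelled as global MAGL-KO 10 of 22 delayed genes were higher, with Penk at 2.45, and in that labelled astrocyte MAGL-KO 9 of 21, with Penk at 1.94 and 1 lower, Pcsk1 (-0.73). Of 17 and 16 rapid genes counted in these 2 libraries 4 and 6 were higher, and 1 and 0 lower. Over all genes in granule nuclei 18.8%, 7.57% and 21.2% were higher in the order neuron, global and astrocyte, and 2.16%, 2.71% and 1.56% lower. Of 26 upstream regulators 1 was lower in each of the libraries labelled neuron and global MAGL-KO, the kinase gene Camk4 in both (-0.61 and -0.50), 0 were higher there and 1 in that labelled astrocyte MAGL-KO (Mapk3, 0.57). Penk is among the genes that lead the granule cluster described above, whose share differs between libraries.

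Of 9593 genes, those whose levels over the 25 sums were most like the members' mean were Dtnbp1 (Pearson r = 0.90), Lmtk2 (0.90) and Ralyl (0.90). With each subtype's mean subtracted they were Dclk1 (0.85), Rheb (0.84) and R3hdm1 (0.83). Nr4a2, the third Nr4a receptor gene, was among the 10 nearest in both, at 0.89 and 0.81. The sums share libraries and subtypes, and these values are descriptions.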

How the data were processed

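Single-nucleus multiome libraries of mouse hippocampus were used, 1 per genotype. The deposited matrices hold UMI counts per gene and cut-site counts per peak. Cell Ranger ARC 2.0.0, Seurat and mm10 are named in the submitters' processing notes, and an aligner was not given in the sources used here. A nucleus needed 500 genes and no more than 5% mitochondrial UMIs. The 0.8% per 1000 nuclei with the highest Scrublet scores were removed as likely doublets. Clusters (scanpy 1.11.5, 2000 variable genes, 40 components, 15 neighbours, Leiden resolution 1) were made without the members and the other activity genes, and named from marker genes. A cluster stayed unnamed when a second class exceeded 0.75 of the best score, and 13.1% to 15.5% of nuclei per library stayed unnamed.

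UMIs were summed per subtype and library. Subtypes were compared in edgeR 4.0.16 (R 4.3.3, quasi-likelihood, library as block, TMM), with DESeq2 1.42.0 as alternative. The edgeR fit was tested on simulated data. Since each block holds all 5 subtypes of 1 library, the sums are paired by library, which the labels give. Ratios between libraries carry exact conditional binomial 95% intervals, with a threshold of 0.5 (log2) and 50 UMIs over both libraries. Depth per sum was 7418037 to 24262073 UMIs, and 5420743 to 22399640 cut sites. The named genes were all members, and of each list the 2 highest and 2 lowest ratios in granule nuclei. The members, lists and tests were chosen with earlier results of these data known. Alternatives covered scaling, pseudocount, count minimum, clustering, doublets, sex of nuclei, thinning and peak window. Reads were not used.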

Additional observations from a re-analysis of the deposited data

Results flagged for a closer look

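Effects of opposite direction in 2 subtypes were looked for in each comparison with 5xFAD, among pairs with a ratio past 0.5. Each rests on 1 library per genotype, so the difference was not tested. Egr3 in the library labelled as astrocyte MAGL-KO had a log2 ratio of 0.65 in granule nuclei and of -0.90 in CA1, -0.88 in CA3, -0.98 in subicular and -0.66 in inhibitory nuclei. The granule value was 0.46 with size factors and 0.36 without cluster c12, and the inhibitory value was 0.12 as a mean over nuclei. Egr3 in that labelled as global MAGL-KO had ratios of 0.68 in granule and -0.60 in CA3 nuclei. Arc had a ratio of 3.26 in granule and -0.61 in CA1 nuclei of the library labelled as neuron MAGL-KO. In Y-linked granule nuclei Arc was not higher there, at 0.64 against 0.877 CPM in 5xFAD, from 2 and 10 UMIs. For global MAGL-KO, as labelled, Arc had 0.88 in granule nuclei, with an interval of -0.01 to 1.82, and -0.73 in CA3, -0.60 in subicular and -1.11 in inhibitory nuclei.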

How the results depend on the processing

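Leaving out 1 library at a time, 9 to 10 members were higher than in granule nuclei in CA1, 7 to 9 in CA3, 9 to 10 in subicular and 9 in inhibitory nuclei, and 0 were lower in each. Without the replicate block 8, 7, 10 and 8 were higher, and DESeq2 gave 10, 8, 10 and 9. With cluster c17 alone as the inhibitory class 4 were higher and 1 lower there, with and without the filter on low counts, from few UMIs. For pairs past the fold the cause of each move was not tested, except that stricter minimums and thinning count fewer pairs. In 5xFAD against wild type, 9 pairs lower became 4 (pseudocount 5 CPM) and 14 (minimum 10 UMIs). The 1 higher became 0 with a pseudocount of 1 or 5 CPM, clustering on all variable genes, no doublet removal, thinning, nuclei of 1 sex call or inhibitory cluster c17 alone, and 2 with highest marker scores or Xist nuclei. For astrocyte MAGL-KO as labelled, against 5xFAD, 27 lower became 9 (Xist nuclei) and 11 (thinned), and 2 higher became 1 (size factors, thinned, without granule cluster c12) and 0 (pseudocount 5 CPM, Y nuclei). In that labelled neuron MAGL-KO, 16 lower became 8 (pseudocount 5 CPM), 10 (highest marker score, thinned) and 4 (Xist nuclei), and 3 higher became 5 (minimum 10 UMIs), 9 (Xist nuclei), 6 (mean over nuclei, 1 sex call) and 1 (without c12). In that labelled global MAGL-KO, 22 lower became 8 (pseudocount 5 CPM), 13 (minimum 200 UMIs, no doublet removal), 9 (Xist nuclei), 4 (thinned) and 14 (c17 alone), and 2 higher became 1 (pseudocount 1 CPM, minimum 200 UMIs, Xist nuclei, thinned, 1 sex call) and 0 (pseudocount 5 CPM, Y nuclei, without c12). Of 814 values of single pairs 653 moved by less than their interval, 156 moved more and 5 reversed: Egr3 in inhibitory nuclei of the library labelled astrocyte MAGL-KO as a mean over nuclei (0.12), and in Xist nuclei of the inhibitory class Nr4a3 in those labelled astrocyte (0.33), neuron (0.96) and global MAGL-KO (0.44) and Nr4a1 in the last (0.23). Median shares of nuclei with 3 or more members, 0.183%, 5.14%, 1.26%, 4.64% and 2.13% in granule, CA1, CA3, subicular and inhibitory nuclei, were 0.956%, 24.9%, 29.1%, 33.2% and 25% as counted, and 1.97% in CA1 and 0.179% in inhibitory nuclei at 2000 UMIs. Median promoter cut sites, 38.1, 40.1, 36.0, 41.9 and 42.7 CPM, were 46.2, 54.7, 48.2, 62.2 and 57.2 within 1000 bases. The 1 sex call, c12 and c17 settings were chosen after seeing the data. Fos and Fosb in granule nuclei are limited by depth.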
